A study of Mus musculus with 15 samples.

Results

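The transcripts described here code for 8 proteins of the kainate and delta branches of the ionotropic glutamate receptors: the kainate receptor subunits *Grik1* (GluK1), *Grik2* (GluK2), *Grik3* (GluK3), *Grik4* (GluK4) and *Grik5* (GluK5), the delta receptor subunit *Grid1* (GluD1), and the kainate receptor auxiliary subunits *Neto1* and *Neto2*. They were taken by gene symbol from a table of 24982 symbols. The rule uses no measured value, but the set was proposed with earlier results of these data known. All 8 were present, and all 8 were among the 15261 genes that passed the minimum level for testing.

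RNA was sequenced from the ventral striatum, the part of the striatum that holds the nucleus accumbens, of 15 C57BL/6J mice aged 2 to 3 months. The groups were 4 wild-type (WT) males, 4 WT females, 3 *Fmr1* knockout (KO) males and 4 *Fmr1* KO females, and every mouse had gone through behavioral tests before dissection. *Fmr1* codes for FMRP, the RNA-binding protein lost in fragile X syndrome. The KO line was bred within itself, from hemizygous males and homozygous females, with same-strain WT mice as controls, and a further KO male that the authors excluded was not analysed here. The knockout is present in every cell from conception, so the comparison does not separate one cell type from another. The values are regularized log (rlog) values, a log2 scale made by DESeq2 that draws weakly counted genes toward their mean, and since they carry no read counts, sequencing depth per mouse cannot be given.

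Kainate receptors are tetrameric cation channels opened by glutamate. GluK1, GluK2 and GluK3 can form channels alone, whereas GluK4 and GluK5 bind glutamate with high affinity and need a partner from the first set. The receptors act on both sides of the synapse: presynaptically they tune transmitter release, and postsynaptically they carry slow currents, whose kinetics are slowed by the single-pass proteins Neto1 and Neto2. GluD1 resembles these channels in sequence but works mainly as a synapse organizer, tied through cerebellins to presynaptic neurexins.

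The subunits also share the short loop that lines the pore. In *Grik1* and *Grik2* pre-mRNA, one glutamine codon of that loop, the Q/R site, can be recoded to arginine by the editing enzyme ADAR2, the product of *Adarb1*. To show how alike the members are at this position, 30 bases of the spliced transcript around the codon are given from the GENCODE annotation of GRCm38, 5′ to 3′, with the codon in capitals. The genome holds the unedited letters, and editing itself was not analysed here.
Grik1: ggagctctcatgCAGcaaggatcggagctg
Grik2: ggagctctcatgCAGcaaggttctgagctc
Grik3: ggctccctgatgCAGcaaggatctgaactg
Grik4: ggaggcttcatgCAGcaaggctccactatt
Grik5: ggtggcttcatgCAGcagggctcggagatc
Grid1: ggagcctttgtcCAGcaaggtggtgagtct

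All 6 pore-forming members carry CAG at this position. Against the window of *Grik2*, the window of *Grik1* differed at 3 of 30 bases, that of *Grik3* at 7, that of *Grik5* at 8, and those of *Grik4* and *Grid1* at 10 each. The codon lies at chr16:87940542-87940544 (minus strand, within the coding part of exon 13) in *Grik1*, at chr10:49244329-49244331 (minus strand, exon 12) in *Grik2* and at chr4:125691207-125691209 (plus strand, exon 12) in *Grik3*. In *Grik4* it lies at chr9:42547623-42547625 (minus strand, exon 14), in *Grik5* at chr7:25022497-25022499 (minus strand, exon 15) and in *Grid1* at chr14:35450390-35450392 (plus strand, exon 11). Most of these genes are long. *Grid1* spans 763.3 kb of chromosome 14, *Grik2* 693.9 kb of chromosome 10, *Grik4* 426.4 kb of chromosome 9, *Grik1* 394.4 kb of chromosome 16 and *Grik3* 223.5 kb of chromosome 4, whereas *Neto1* spans 111.8 kb of chromosome 18, *Neto2* 64.3 kb of chromosome 8 and *Grik5* 62.5 kb of chromosome 7. A stranded kit was used, but whether the counting used strand is not given in the sources used here, and exons of *Neto1* overlap an antisense gene over 219 bases.

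The labels were checked on the targeted gene first. *Fmr1* lay between 10.62 and 10.88 in the 8 WT mice and between 9.82 and 10.08 in the 7 KO mice on the rlog scale, with no overlap, and its log2 fold change was -0.84 (SE 0.05, limma adjusted p = 2.9e-07 over both sexes). The tissue label was checked on 20 genes of striatal projection neurons, the GABAergic cells that make up most of the striatum, and none was at 0: *Ppp1r1b* (DARPP-32) had a mean rlog of 13.8 and the dopamine receptors *Drd1* and *Drd2* had 12.1 and 11.8. Within groups, the correlation between mice across tested genes was 0.992 to 0.999. Nothing in the labels says how litters or cohorts were spread over the sequenced mice. WT male 3 and WT female 1 stood apart from the other WT mice: the score of the projection neuron genes, the mean deviation of their rlog values from each gene's mean, was -0.02 in WT male 3 and -0.24 in WT female 1, against 0.28 to 0.40 in the other 6 WT mice. Where leaving out 1 mouse changed a call of a transcript or moved its value by over 1.5 times, that value is given beside the result.

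The 8 transcripts differed widely in abundance. To compare levels between genes, the log2 of the summed exon length in kb was subtracted from the rlog value, which gives a level per length. The order over the 15 mice was *Grik5* (9.13 ± 0.18, SD), *Neto1* (9.12 ± 0.29), *Neto2* (9.02 ± 0.22), *Grik3* (8.54 ± 0.11), *Grik2* (8.42 ± 0.16), *Grid1* (8.07 ± 0.08), *Grik4* (5.97 ± 0.15) and *Grik1* (5.91 ± 0.42). The first 6 lay between the 72.7th and the 88.5th percentile of 14364 protein-coding genes tested, and *Grik4* and *Grik1* at the 33.7th and the 32.8th. Between *Grid1* and *Grik4* there was a step of 2.10 in level per length, present in 15 of 15 mice and the one step where the ranges were separate. *Neto2* was above *Grik3* and *Grik2* above *Grid1* in 15 of 15 mice as well. The other neighbors did not differ beyond their spread: *Grik5* was above *Neto1* in 7 of 15 mice, *Neto1* above *Neto2* in 12, *Grik3* above *Grik2* in 10 and *Grik4* above *Grik1* in 9. The order within the upper and within the lower set depended on the length used. With the coding length in place of all exons, *Neto1* had rank 1, *Neto2* 2, *Grik2* 3 and *Grik5* 5, while *Grik1* and *Grik4* stayed the lowest.

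**Figure D1:**
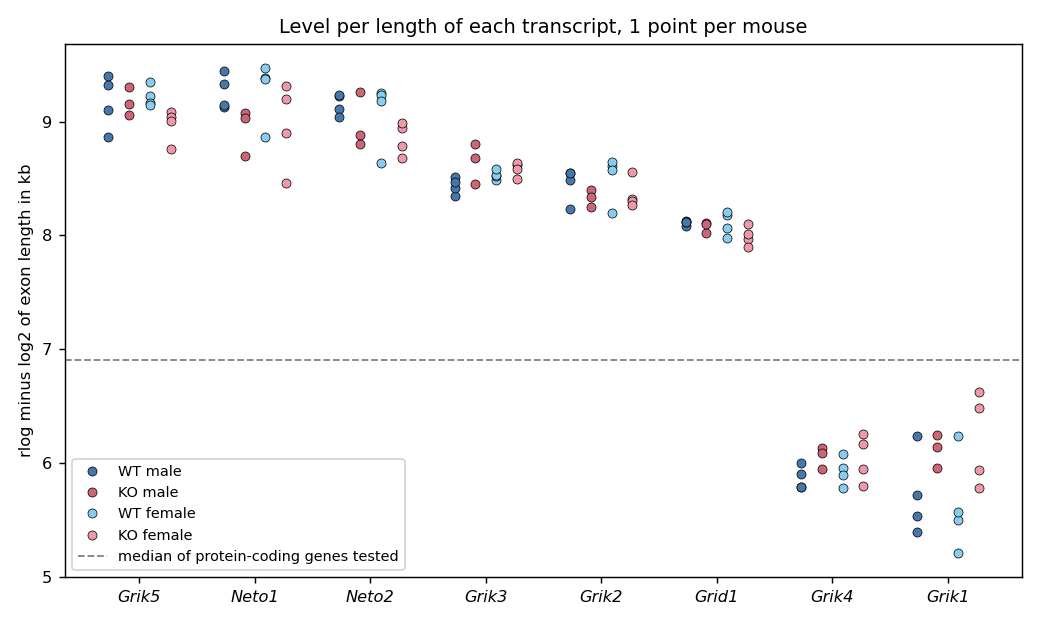
Level per length (rlog minus the log2 of exon length in kb, vertical axis) of each transcript in each of 15 mice, ordered by the mean and colored by group, with a dashed line at the median of the protein-coding genes tested (6.91). Every point of *Grik4* and *Grik1* lies below the dashed line and every point of the other 6 transcripts above it.

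Among the 5 kainate subunits, the summed level per length in WT mice was made up of 41.5% ± 3.7 (SD, n = 8) *Grik5*, 25.3% ± 2.7 *Grik2*, 25.2% ± 1.3 *Grik3*, 4.22% ± 0.42 *Grik4* and 3.74% ± 1.16 *Grik1*. In KO mice the shares were 38.4% ± 2.4 (n = 7), 23.5% ± 2.0, 28.1% ± 1.4, 4.78% ± 0.52 and 5.29% ± 1.26 in the same order. The *Grik3* share ranged from 23.0% to 27.5% in WT mice and from 26.3% to 29.8% in KO mice. These shares are a description of transcript abundance, not of receptor composition, and with coding lengths the WT shares became 24.8% for *Grik5* and 41.5% for *Grik2*.

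The main question was whether these transcripts differed between *Fmr1* KO and WT mice. Over both sexes, none of the 8 passed the limma test at an adjusted p of 0.05 (0 of 8, against 1.28% of all genes tested). At an unadjusted p of 0.05 the count was 5 of 8, against 23.4% of all genes, with *Grik1*, *Grik3* and *Grik4* on the higher side in KO mice (3 of 8, against 11.6% of all genes) and *Neto1* and *Neto2* on the lower side (2 of 8, against 11.8%). For none of the 8 were the KO and WT mice of both sexes together free of overlap (0 of 8, against 0.367% of all genes). The point estimates of the 8 ranged from -0.31 for *Neto1* to 0.49 for *Grik1* on the log2 scale, and the median over all genes tested was 0.002.

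**Figure D2:**
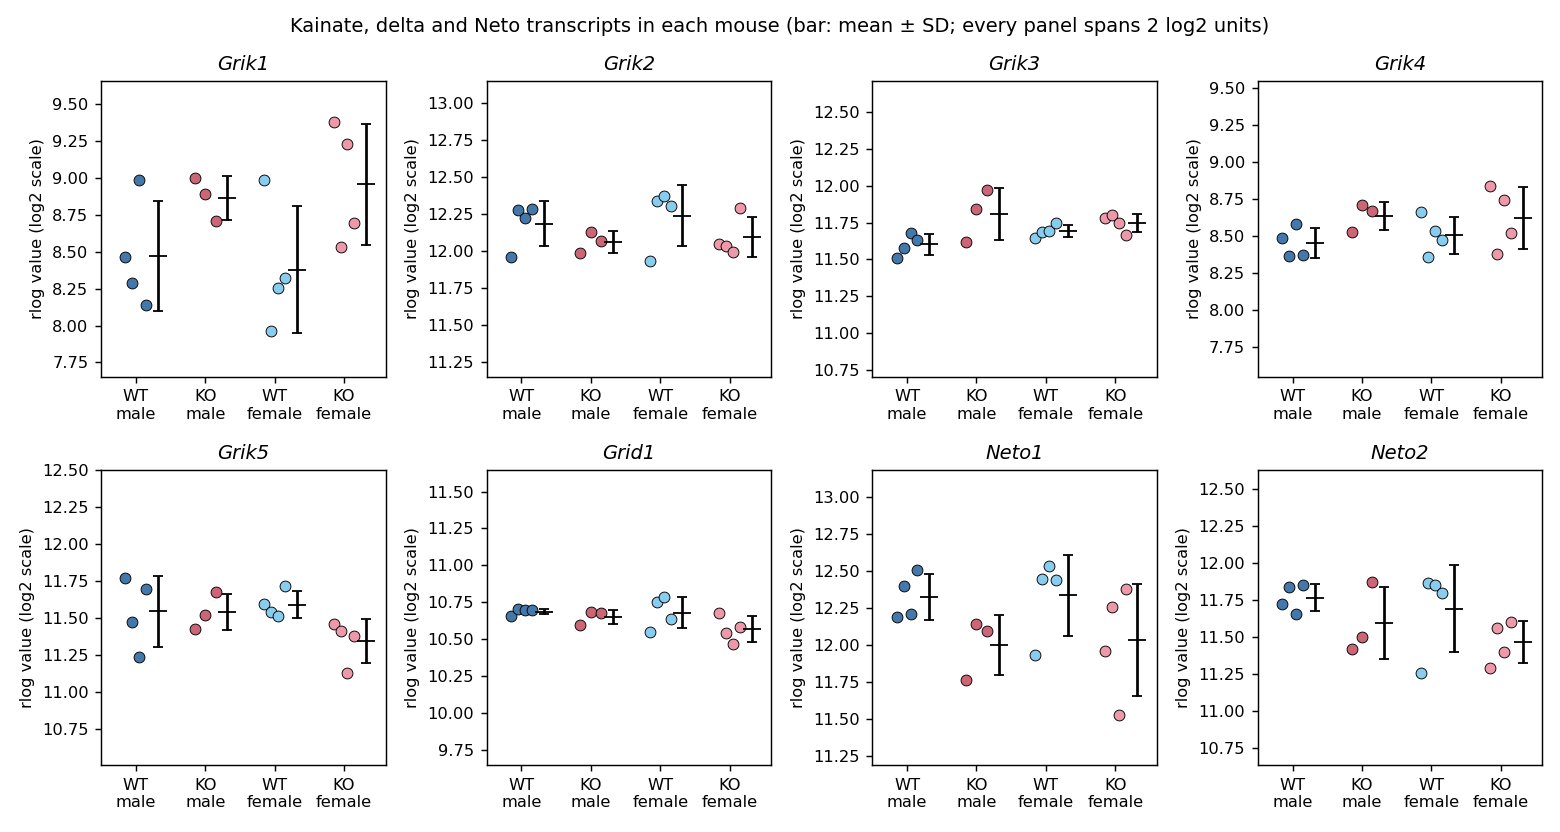
The rlog value (log2 scale, vertical axis) of each transcript in each mouse by group, with the mean ± SD of the group as a bar beside the points. Each panel spans the same range of 2 log2 units, so *Grik1*, with the highest spread within groups (0.37), can be set against *Grid1*, with the lowest (0.08).

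*Grik1* codes for a subunit known in forebrain mainly from interneurons and presynaptic terminals. The WT males had rlog values of 8.46, 8.29, 8.99 and 8.14, and the KO males 8.997, 8.89 and 8.70. In females, the WT mice had 8.98, 7.96, 8.25 and 8.32, and the KO mice 9.37, 8.53, 9.23 and 8.69. The groups overlapped in both sexes, as WT male 3 and WT female 1 lay within the range of the KO mice. Over both sexes the fold change was 1.41 (log2 0.49, SE 0.17, 95% interval 0.14 to 0.85, adjusted p = 0.102, exact permutation p = 0.0241). The estimate was 0.39 (SE 0.18, adjusted p = 0.312) in males and 0.58 (SE 0.25, adjusted p = 0.334) in females. It was larger in size than that of 99.0% of the genes tested over both sexes, while its spread within groups was higher than that of 98.4% of them. Over fits without 1 mouse, the value over both sexes ran from 0.42 to 0.59 and its adjusted p from 0.0331 (without WT female 1) to 0.205 (without KO female 3), and the 1 other fit under 0.05 was that without WT male 3 (0.0415). In males the adjusted p ran from 0.0452 (without WT male 3) to 0.686 (without KO male 1). The mice whose removal gave a call had the highest *Grik1* values among the WT mice of their sex.

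*Grik2* and *Grik3* code for the other subunits that form channels alone. For *Grik2*, the most widely expressed kainate subunit in brain, the WT males had 11.96, 12.28, 12.22 and 12.28 and the KO males 11.98, 12.13 and 12.06. WT females had 11.93, 12.34, 12.37 and 12.30, and KO females 12.04, 12.03, 11.99 and 12.29. The groups overlapped in both sexes, through WT male 1 and WT female 1, which were lower than every KO mouse. Over both sexes the estimate for *Grik2* was -0.14 on the log2 scale (SE 0.07, adjusted p = 0.262, exact permutation p = 0.0988), with -0.13 in males and -0.15 in females. The male value was -0.20 without WT male 1 and the female value -0.25 without WT female 1, and no fit without 1 mouse gave an adjusted p under 0.0634 over both sexes.

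For *Grik3*, whose receptors have a low affinity for glutamate, the WT males had 11.51, 11.58, 11.68 and 11.63, and the KO males 11.62, 11.84 and 11.97. WT females had 11.65, 11.69, 11.69 and 11.75 and KO females 11.78, 11.80, 11.75 and 11.67. KO males 3 and 4 and KO females 1 and 2 were above every WT mouse of their sex, and the groups overlapped. The log2 fold change was 0.12 (SE 0.05, adjusted p = 0.150, exact permutation p = 0.0237) over both sexes, 0.21 (SE 0.08, adjusted p = 0.264) in males and 0.05 (SE 0.05, adjusted p = 0.601) in females. The male value was 0.13 without KO male 4 (adjusted p = 0.485), the female value was 0.08 without KO female 4, and no fit without 1 mouse gave a call.

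*Grik4* and *Grik5* code for the high-affinity subunits. *Grik4* had rlog values of 8.48, 8.37, 8.58 and 8.37 in WT males and 8.53, 8.71 and 8.67 in KO males. WT females had 8.66, 8.36, 8.53 and 8.47, and KO females had 8.83, 8.38, 8.74 and 8.52. WT male 3 and WT female 1 had the highest WT values of their sex, and 6 of 7 KO mice were above the WT median. For *Grik4* a log2 fold change of 0.15 was found (SE 0.07, adjusted p = 0.205, exact permutation p = 0.0547) over both sexes, 0.19 (SE 0.08, adjusted p = 0.266) in males and 0.12 (SE 0.11, adjusted p = 0.630) in females. The female value was 0.04 without KO female 1 and 0.20 without KO female 2.

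*Grik5*, the most abundant of the 5 per exon length, had 11.77, 11.47, 11.24 and 11.69 in WT males and 11.43, 11.52 and 11.67 in KO males. In females the WT mice had 11.59, 11.54, 11.51 and 11.72 and the KO mice 11.46, 11.41, 11.13 and 11.38. Every KO female was below every WT female, while the KO males lay within the range of the WT males. Groups that did not overlap in females, with KO mice below, were found for 3.89% of all genes. The log2 fold change was -0.25 in females (SE 0.08, 95% interval -0.42 to -0.07, adjusted p = 0.255, exact permutation p = 0.0286, the smallest that 4 against 4 mice can give) and -0.0034 in males (SE 0.12, adjusted p = 0.993). Over both sexes it was -0.13 (SE 0.08, adjusted p = 0.332), and -0.09 without KO female 3. In males it was -0.11 without WT male 3 and 0.07 without WT male 1. The difference between the sexes in the KO effect was -0.24 (SE 0.16, 95% interval -0.58 to 0.09, adjusted p = 0.803), so a sex difference was not shown, and it was -0.14 without WT male 3.

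*Grid1* varied least. WT males had 10.66, 10.70, 10.70 and 10.70, and KO males 10.59, 10.68 and 10.68. WT females had 10.55, 10.75, 10.78 and 10.64, and KO females 10.68, 10.54, 10.47 and 10.58. All 7 KO mice lay below the WT median and the groups overlapped. KO mice differed from WT mice by -0.08 on the log2 scale (SE 0.04, 95% interval -0.16 to 0.01, adjusted p = 0.259, exact permutation p = 0.0718) over both sexes, -0.04 in males and -0.11 in females. The male value was -0.0082 without KO male 1.

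The Neto proteins are auxiliary subunits with no pore of their own. For *Neto1*, which also binds NMDA receptors, WT males had 12.19, 12.40, 12.21 and 12.51, and KO males 11.76, 12.14 and 12.09. WT females had 11.93, 12.44, 12.53 and 12.44, and KO females had 11.96, 12.26, 11.53 and 12.38. Each KO male was below each WT male, which was also the case for 8.58% of all genes, and in females the groups overlapped through WT female 1. Over both sexes the log2 fold change was -0.31 (SE 0.12, 95% interval -0.57 to -0.06, adjusted p = 0.139, exact permutation p = 0.0294). It was -0.33 (SE 0.11, adjusted p = 0.205) in males, where the exact permutation p of 0.0286 is the smallest that 3 against 4 mice can give, and -0.31 (SE 0.20, adjusted p = 0.481) in females. Over fits without 1 mouse, the value over both sexes ran from -0.38 (without WT female 1, adjusted p = 0.0471, the one call) to -0.23 (without KO female 3, adjusted p = 0.267). The male value was -0.21 without KO male 1, and the female value was -0.14 without KO female 3 and -0.44 without WT female 1.

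*Neto2*, which shares the domain layout of *Neto1*, had 11.73, 11.84, 11.65 and 11.85 in WT males and 11.42, 11.50 and 11.87 in KO males. WT females had 11.25, 11.87, 11.85 and 11.80, and KO females had 11.29, 11.56, 11.40 and 11.60. KO male 4 was above every WT male and WT female 1 below every KO female, so the groups overlapped in both sexes. The log2 fold change was -0.20 (SE 0.09, 95% interval -0.40 to -0.0044, adjusted p = 0.203, exact permutation p = 0.0727) over both sexes, -0.17 in males and -0.23 in females. Over fits without 1 mouse, the value over both sexes ran from -0.27 (without WT female 1, adjusted p = 0.0352, the one call) to -0.17 (without KO male 1, adjusted p = 0.366). The male value was -0.08 without KO male 1 and -0.31 without KO male 4, and the female value was -0.37 without WT female 1.

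**Figure D3:**
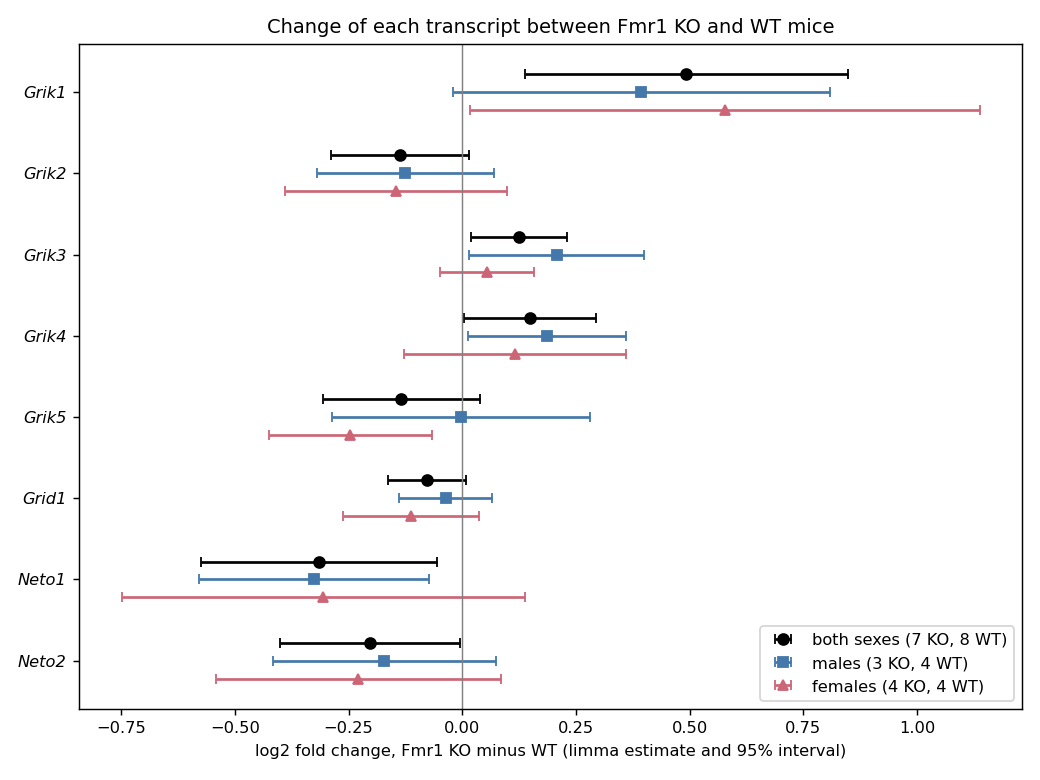
The log2 fold change of each transcript between *Fmr1* KO and WT mice (horizontal axis) with its 95% interval from limma, over both sexes, in males and in females. Over both sexes the intervals of *Grik1*, *Grik3* and *Grik4* lie above 0 and those of *Neto1* and *Neto2* below 0 before adjustment for the 15261 genes tested, and no adjusted p is under 0.05.

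In the sexes taken alone, 0 of 8 passed in males (against 0.00655% of all genes) and 0 of 8 in females (against 0.0131%) with limma. Of 15261 genes, only 1 passed in males and 2 in females. The authors' DESeq2 test of read counts called many more genes at the same threshold, in each sex and over both. A count of 0 of 8 here therefore does not show that the transcripts were unchanged. At an unadjusted p of 0.05 the counts were 3 of 8 in males (against 17.2% of all genes) and 2 of 8 in females (against 14.5%). In males, *Grik3* and *Grik4* were on the higher side (2 of 8, against 8.75% of all genes) and *Neto1* on the lower (1 of 8, against 8.45%). In females, *Grik1* was on the higher side (1 of 8, against 6.55%) and *Grik5* on the lower (1 of 8, against 7.93%). Male and female estimates pointed the same way for 8 of 8 transcripts, as for 63.0% of all genes, but that of *Grik5* in males was near 0 and changed sign under several other settings. None of the 8 passed the test of a difference between the sexes in the KO effect (0 of 8, against 0% of all genes, and at an unadjusted p of 0.05 0 of 8, against 5.98%). The 2 lowest p-values there belonged to *Grik3* (-0.15, SE 0.10, adjusted p = 0.800) and to *Grik5*. The value for *Grik3* was -0.25 without KO male 1 and -0.07 without KO male 4. Between WT females and WT males none of the 8 passed either (0 of 8, against 2.82% of all genes, and 0 of 8 at an unadjusted p of 0.05, against 15%). The lowest p-value of that comparison was that of *Grik3*, higher by 0.09 in WT females (SE 0.06, adjusted p = 0.573).

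Several of the transcripts varied together or in opposition. Over the 15 mice, *Grik1* was higher where *Grik4* was higher (Pearson's r = 0.863, Spearman's rho = 0.825, permutation adjusted p = 0.0014 and 0.0042) and lay lower where *Neto1* was higher (r = -0.839, rho = -0.896, permutation adjusted p = 0.0014 and 0.0008). *Neto1* and *Neto2* went together (r = 0.766, rho = 0.729, permutation adjusted p = 0.0071 and 0.0222), as did *Grik2* and *Neto1* (r = 0.819, rho = 0.850, permutation adjusted p = 0.0014 and 0.0024). *Grik1* and *Neto2* opposed each other (r = -0.851, rho = -0.789, permutation adjusted p = 0.0014 and 0.0078). Without the 2 mice farthest from the median of the first gene, these 5 correlations were 0.787, -0.874, 0.776, 0.774 and -0.804. Within WT mice alone they were 0.873, -0.844, 0.931, 0.902 and -0.830, and within KO mice alone 0.807, -0.733, 0.485, 0.744 and -0.749. Of 28 pairs, 12 had an adjusted p under 0.05 for r, adjusted over 108 relations that include the cell type scores, and none of the 12 involved *Grik3* or *Grik5*. The share of pairs of other genes that pass was not computed, so the count cannot be read as a trait of these transcripts.

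Markers of cell types and regions were set beside these transcripts. Each of the 20 genes of projection neurons had a lower estimate in KO mice over both sexes, against 48.9% of all genes. All 20 had an unadjusted p under 0.05 (against 11.8% of all genes on the lower side), and 2 passed the adjusted test (against 1.28%). The median log2 fold change of the 20 was -0.48. The log2 of their summed level ran from 17.5 to 17.9 in WT males, 17.1 to 17.6 in KO males, 17.3 to 17.97 in WT females and 16.7 to 17.5 in KO females. Of 18 genes of thalamus, hypothalamus, septum and pallidum, the regions around the ventral striatum, 16 could be tested. All 16 were on the higher side in KO mice over both sexes, where 48.9% of all genes were on the lower side. Of these, 5 had an unadjusted p under 0.05 (against 11.6% of all genes on the higher side), and none passed the adjusted test (against 1.28%). The estimates were uneven, from 0.0056 for *Nkx2-1* and 0.04 for *Lhx8* to 1.13 for *Slc17a6*. In males alone 6 of 16 had an unadjusted p under 0.05 (against 8.75% on the higher side). In females 0 of 16 did (against 6.55%), and 2 of 16 were on the lower side. The median log2 fold change of the 16 over both sexes was 0.48, and the log2 of their summed level ran from 11.4 to 12.5 in WT males, 12.2 to 13.5 in KO males, 11.6 to 12.5 in WT females and 11.5 to 13.2 in KO females. None of the genes on either list was at 0 in every mouse. In bulk tissue, fewer cells of a type and less RNA per cell cannot be told apart, and how much neighboring tissue each dissection held was not measured.

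Set against the score of the projection neuron genes over the 15 mice, *Neto1* had r = 0.918 (rho = 0.889, permutation adjusted p = 0.0005 and 0.0008) and *Grik1* had r = -0.895 (rho = -0.921, permutation adjusted p = 0.0007 and 0.0008). *Neto2* had r = 0.849, *Grid1* 0.739, *Grik2* 0.669, *Grik5* 0.666 and *Grik4* -0.719, each with a permutation adjusted p for r between 0.0011 and 0.0317. By rank, *Grik5* did not pass (rho = 0.579, permutation adjusted p = 0.0822). Its r was 0.488 without the 2 mice with the most extreme scores, 0.347 within WT mice and 0.814 within KO mice. Within WT mice, r was 0.943 for *Neto2*, 0.731 for *Grid1*, 0.666 for *Grik2* and -0.799 for *Grik4*. Within KO mice it was 0.705, 0.562, 0.5 and -0.455 in that order. *Grik3* had r = -0.252 (permutation adjusted p = 0.486). Without the 2 mice with the most extreme scores, r was 0.853 for *Neto1* and -0.916 for *Grik1*. It was 0.896 and -0.923 within WT mice, and 0.887 and -0.775 within KO mice. Against the score of the neighboring regions, *Neto1* had r = -0.943, *Grik1* 0.841 and *Grik4* 0.752. Of 80 relations between the 8 transcripts and 10 cell type or region scores, 20 had a permutation adjusted p under 0.05 for r. How many of all genes tested follow these scores as closely was not computed. Following a score can therefore not be read as particular to these transcripts.

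**Figure D4:**
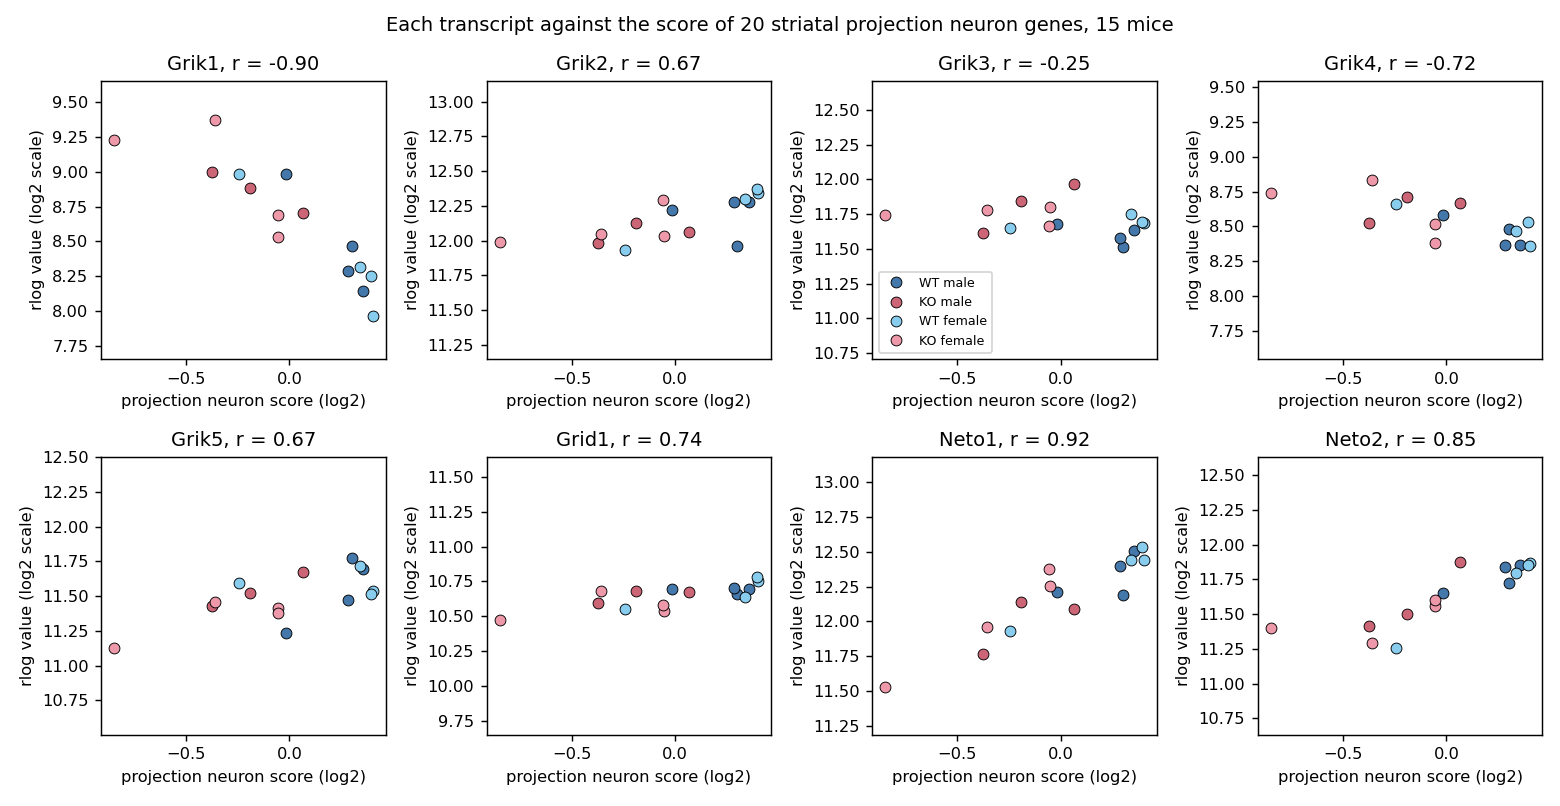
The rlog value of each transcript (vertical axis, each panel spanning 2 log2 units) against the score of 20 striatal projection neuron genes (horizontal axis, mean deviation on the log2 scale) in 15 mice, colored by group, with Pearson's r over all mice above each panel. *Neto1* and *Neto2* climb and *Grik1* falls with the score in WT and KO mice alike, and *Grik3* shows no slope.

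When the score of projection neuron genes entered the limma model over both sexes as a covariate, the log2 fold change of *Grik1* was -0.03 in place of 0.49, that of *Neto1* 0.10 in place of -0.31 and that of *Neto2* 0.07 in place of -0.20. *Grik4* had 0.0073, and *Grik2*, *Grik5* and *Grid1* lay between 0.0047 and 0.03. *Grik3* alone kept its size, at 0.17 in place of 0.12. Every adjusted p was 0.999. With the score of the neighboring regions as the covariate, *Grik1* was at 0.17, *Neto1* at -0.04, *Neto2* at -0.05 and *Grik3* at 0.15, with adjusted p-values from 0.442 to 0.884 over the 8 transcripts. The score is itself lower in KO mice, so what these fits remove and the effect of genotype cannot be told apart.

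**Figure D5:**
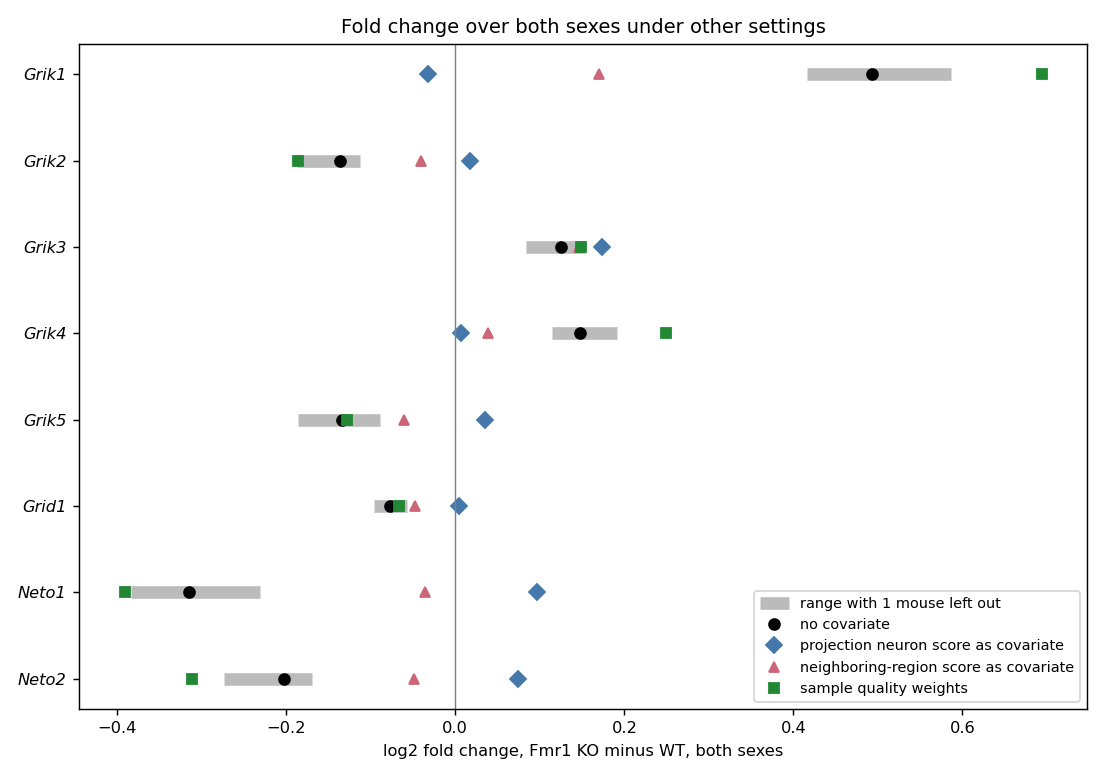
The log2 fold change of each transcript over both sexes (horizontal axis) as reported, with the projection neuron score or the neighboring-region score as a covariate, with sample quality weights, and as the range over fits that leave out 1 mouse each. The covariate moves *Grik1* from 0.49 to -0.03 and *Neto1* from -0.31 to 0.10, while leaving out 1 mouse keeps *Grik1* between 0.42 and 0.59 and *Neto1* between -0.38 and -0.23.

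The genes whose values followed each transcript most closely over the 15 mice are given as a description, since they were picked for likeness. *Grik1* was followed by *Camk2d*, a calcium/calmodulin kinase subunit (r = 0.970), *Gabra3*, a GABA-A receptor subunit (0.963), and *Dscam*, a cell adhesion molecule (0.962). *Neto1* was followed by *Abi2*, a regulator of actin (0.982), *Arel1*, a ubiquitin ligase (0.977), and *Syt6*, a synaptotagmin (0.977), and *Neto2* by *Acvr1c* (0.967), *Spock3* (0.946) and *Gipc2* (0.945). *Grik5* was closest to *Palm*, a membrane protein of neurites (0.975), *Pbx2* (0.955) and *Fbxl19* (0.951). *Grik2* was closest to *Lrba* (0.948), *Bmpr2* (0.938) and *Nfx1* (0.932), *Grik4* to *Cgn* (0.934), *Lhx5* (0.916) and *Arl10* (0.916), and *Grid1* to *Tle4* (0.899), *Klhl13* (0.890) and *Clip4* (0.860). The highest values for *Grik3* were lower, with *Ifit1bl2* (0.721), *Sdk2* (0.713) and *Zbtb16* (0.709), and fell to 0.572, 0.400 and 0.399 once the group means were removed. For *Grik1*, *Neto1*, *Neto2* and *Grik5*, the correlations without the group means stayed between 0.932 and 0.983.

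The partners of these receptors were read over both sexes from lists chosen by role. Of 18 genes for the trafficking and anchoring of kainate receptors, 0 passed the adjusted limma test, against 1.28% of all genes, and at an unadjusted p of 0.05 3 were on the higher side (against 11.6%) and 4 on the lower side (against 11.8%). The synaptic scaffolds *Dlg1* (SAP97) and *Dlg4* (PSD-95) had log2 fold changes of -0.25 (SE 0.06, adjusted p = 0.0502) and -0.28 (SE 0.08, adjusted p = 0.0657). *Kif17*, a kinesin that carries receptor cargo along dendrites, had -0.29 (SE 0.09, adjusted p = 0.0835). *C1ql3*, a secreted synaptic organizer of the C1q family, had 0.44 (SE 0.15, adjusted p = 0.103).

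Of 13 partners of the delta receptors, 0 passed, against 1.28% of all genes. At an unadjusted p of 0.05, 5 were on the higher side (against 11.6%) and 1 on the lower side (against 11.8%). Among the cerebellins, which bridge GluD1 to neurexins, *Cbln1* had 0.69 (SE 0.23, adjusted p = 0.0983), *Cbln2* 0.60 (SE 0.16, adjusted p = 0.0613) and *Cbln3* 0.10 (SE 0.04, adjusted p = 0.139). *Cbln3* lay near the minimum level for testing, with a mean rlog of 3.92. The remaining cerebellin, *Cbln4*, had 0.28 (SE 0.165, adjusted p = 0.313). The scaffold *Magi2* had -0.13 (SE 0.04, adjusted p = 0.0912). For *Cbln2* the estimate was 0.21 in males and 0.94 in females, and the difference between them did not pass (0.73, SE 0.28, adjusted p = 0.791).

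Of the 3 genes of the editing family, 0 passed, against 1.28% of all genes. At an unadjusted p of 0.05, 1 was on the higher side (against 11.6%). That was *Adarb2*, which codes for the family member without known editing activity (0.29, SE 0.11, adjusted p = 0.127). *Adarb1* had 0.21 (SE 0.10, adjusted p = 0.219) and *Adar* 0.06 (SE 0.04, adjusted p = 0.396).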

How the data were processed

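Ventral striatum RNA was sequenced by the authors from stranded mRNA libraries as paired 150-base reads. Per the submitters' notes and the methods, reads were aligned and counted with Illumina's RNA-Seq Alignment tool, which runs STAR, on mm10 (GRCm38), and DESeq2 was used. The deposited values are rlog values on a log2 scale, normalized by the authors across all samples. The strand setting of the counting is not given in the sources used here, read counts were not used here, and depth and counting intervals are unknown, so precision rests on the variation among mice. Of 24982 symbols, 20223 varied, and 4759 were 0 in every mouse.

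Testing was limited to the 15261 genes whose mean rlog reached 3. The tool was limma 3.58.1 in R 4.3.3 (trended empirical Bayes, 2-sided, Benjamini-Hochberg over all genes tested, threshold 0.05), run with sex as a term over both sexes, in each sex alone, and from the 4 group means for the interaction and the WT sex difference. The fit was tested on simulated data. Single transcripts were also compared with 2-sided exact permutation tests, within sex over both sexes, and correlations with 100000 permutations. Lengths, positions and sequences came from GENCODE for GRCm38. Figures used matplotlib 3.10.9 (Python 3.11.15).

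The 8 transcripts and the gene lists were chosen with earlier results of these data known. Genes named are the 8 transcripts and *Fmr1*, the 3 named genes with the highest correlation to each, and up to 4 of each partner list with the lowest adjusted p over both sexes. A few tissue markers, and *Adar* and *Cbln4* beside their families, were named outside the selection by p. Settings varied were the minimum level (5, or none), the variance trend (none), quantile normalization, median centring, sample quality weights, a replicate block, 3 marker scores as covariates, no term for sex, one shared spread for the fits by sex, leaving out each mouse, and other gene lengths. A fit without both WT male 3 and WT female 1 was added after the data were seen.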

Additional observations from a re-analysis of the deposited data

Results flagged for a closer look

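In 24 groups of 4 mice, the highest and lowest values of the 8 transcripts were checked for a distance from the rest that Dixon's 95% limit does not allow, which chance gives in about 5% of groups. WT female 1 was far below the other WT females in 3 of them: *Grik2* at 11.93 against 12.30 to 12.37 in the others, *Neto1* at 11.93 against 12.44 to 12.53, and *Neto2* at 11.25 against 11.80 to 11.87. The gap made up 0.840, 0.846 and 0.889 of the range of the group. The same mouse had a projection neuron score of -0.24, against 0.34 to 0.40 in the other WT females, and the part of that score in these values was not tested. The fourth value was *Grid1* in WT male 1, at 10.66 against 10.70 in each of the other WT males, where the whole range of the group was small.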

How the results depend on the processing

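No transcript of the 8 passed over both sexes, in either sex, in the interaction or in the WT sex difference under 3 choices of minimum level, without the variance trend, with quantile normalization or median centring, or with any of the 3 covariates. Sample quality weights gave 6 of 8 over both sexes (all but *Grik5* and *Grid1*) and 3 of 8 in males (*Grik1*, *Grik4* and *Neto1*), while calling 4767 and 1865 of all genes. Leaving out 1 mouse at a time gave 0 to 3 over both sexes (1 without WT male 3, 3 without WT female 1) and 0 to 1 in males (1 without WT male 3). A fit without both WT male 3 and WT female 1, the WT mice nearest to the KO mice in the projection neuron score, gave 3 (*Grik1*, *Neto1* and *Neto2*, with 2179 of all genes). These mice were picked after the data were seen, by a score that the 3 transcripts follow, so the choice itself widens the difference and the count supports nothing. For the weights the cause was not tested. With a replicate block, 0 of 8 passed in every comparison, and 3 genes in all passed over both sexes. Same-numbered mice did not deviate together in every pair (correlations from -0.191 to 0.439).

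Of 216 log2 fold changes over both sexes under alternatives, 197 kept direction and side of the threshold, 13 passed it and 6 changed sign. The 6 came with the projection neuron score as covariate: *Grik1* -0.032, *Grik2* 0.018, *Grik5* 0.035, *Grid1* 0.0047, *Neto1* 0.097 and *Neto2* 0.074. In males that covariate gave *Grik1* -0.14, *Grik5* 0.35 and *Neto2* 0.14, and in females *Grik2* 0.073, *Grik4* -0.087, *Neto1* 0.22 and *Neto2* 0.063. The neighboring-region score turned, in males, *Grik1* to -0.073, *Grik5* to 0.20, *Grid1* to 0.012 and *Neto2* to 0.072. *Grik5* in males, at -0.0034 as reported, also had 0.056 with the cortical score, 0.015 with quantile normalization and -0.11 to 0.073 over fits without 1 mouse. The count of all genes called over both sexes, 196 as reported, ran from 5 to 1444 when 1 mouse was left out and was 51 with no minimum level. Depth cannot be judged from rlog values.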

Other observations

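The other branches of the ionotropic glutamate receptors were read beside the kainate and delta subunits, over both sexes with limma. Of 11 AMPA and NMDA receptor subunits listed, 10 could be tested. None passed the adjusted test (0 of 10, against 1.28% of all genes), and at an unadjusted p of 0.05 3 were on the higher side (against 11.6%) and 2 on the lower side (against 11.8%). *Gria4*, an AMPA receptor subunit, had a log2 fold change of 0.17 (SE 0.04, adjusted p = 0.0526). The NMDA receptor subunits *Grin2d*, known from interneurons and early development, and *Grin3a* had 0.45 (SE 0.18, adjusted p = 0.153) and 0.31 (SE 0.14, adjusted p = 0.204), and *Grin1*, the obligatory subunit, had -0.13 (SE 0.06, adjusted p = 0.186).

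Of 12 auxiliary subunits of AMPA receptors, which modulate channel gating or trafficking in differing ways, 0 passed (against 1.28% of all genes). At an unadjusted p of 0.05, 0 were on the higher side (against 11.6% of all genes) and 5 on the lower side (against 11.8%). *Gsg1l* had -0.51 (SE 0.14, adjusted p = 0.0611), *Cacng3* -0.44 (SE 0.11, adjusted p = 0.0526), *Cacng4* -0.29 (SE 0.08, adjusted p = 0.0681) and *Cnih2* -0.22 (SE 0.07, adjusted p = 0.0834). The median of the 12 was -0.08, against 0.002 over all genes. Among the other marker lists, 9 of 9 microglia genes were on the lower side in KO mice over both sexes, against 48.9% of all genes. Of these, 5 had an unadjusted p under 0.05 (against 11.8% of all genes on that side). Over both sexes 9 of 10 choroid plexus genes were on the higher side, 5 of them with an unadjusted p under 0.05 (against 11.6%). The choroid plexus counts differed by sex. At an unadjusted p of 0.05, 8 of 10 were on the higher side in males (against 8.75% of all genes). In females it was 0 of 10 (against 6.55%), and 5 of 10 had an estimate on the higher side. For the difference between the sexes, 5 of 10 had an unadjusted p under 0.05 (against 5.98%), none past the adjusted test. Of the 8 transcripts, *Grik5* followed the microglia score over the 15 mice (r = 0.758, permutation adjusted p = 0.0095). That r was 0.901 within WT mice and 0.361 within KO mice. *Grik4* followed the choroid plexus score (r = 0.645, permutation adjusted p = 0.0386), with 0.358 within WT mice and 0.608 within KO mice. The r of *Grik4* was higher with the interneuron score (0.755, permutation adjusted p = 0.0123) and the oligodendrocyte precursor score (0.707, permutation adjusted p = 0.0222).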
